A study of Mus musculus with 12 samples.

Results

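The transcripts described here are 10 interferon-stimulated genes of the antiviral response, Ifit1, Ifit2, Ifit3, Oasl1, Oasl2, Rsad2, Isg15, Zbp1, Rtp4 and Usp18. Of these, Oasl1 and Usp18 are also known to restrain that response. The 10 were chosen by name, by their place in the antiviral interferon response, from the 43432 genes of the RNA-seq tables. The choice was made with earlier results of these data known, so shares of all genes printed beside them are a reference only. All 10 had enough counts to be tested. The cells were BV2, an immortalized mouse microglial line. Serum was withdrawn 24 h after seeding for at least 4 h, and lipopolysaccharide (LPS, the bacterial endotoxin sensed by TLR4) followed at 100 ng/mL, with a ginger phenol given 1 h ahead of it in the compound groups. The 6 groups, of 2 libraries each, were untreated cells, LPS alone, LPS with 6-gingerol at 10 or 30 µM, and LPS with 6-shogaol at 10 or 30 µM. The 2 compounds differ in that 6-shogaol has lost water and has an α,β-unsaturated ketone in place of the β-hydroxy ketone of 6-gingerol. The labels give neither the time from LPS to harvest nor whether replicates were separate cultures, so p-values measure only the spread between these libraries.

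Type I interferons bind a receptor whose JAK kinases activate STAT proteins, and these join IRF9 to bind interferon-stimulated response elements in promoters of genes such as those listed. In macrophages and microglia, TLR4 reaches the same program through TRIF, TBK1 and IRF3, which drives interferon-β. Several of the products act on different steps of infection. IFIT proteins bind foreign RNA or translation factors, and OAS-like proteins act on RNA sensing and viral replication. Viperin (Rsad2) makes an antiviral nucleotide, and ISG15 is a ubiquitin-like modifier.

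Microglial and macrophage markers were present in all 12 libraries: 13 of 14 listed markers were tested, and their summed level lay between 2648 and 3019 CPM (read counts scaled to a common library size). No neuronal marker of 8 was tested, and the sum over those 8 was at most 0.438 CPM. Markers of oligodendrocytes (13.3 to 19.4 CPM in sum, with Mog, Mag and Olig2 at 0) and of lymphocytes, neutrophils and plasmacytoid dendritic cells (1.45 to 3.03 CPM, with 6 of 10 at 0) were low. Fibroblast and endothelial markers summed to between 124.7 and 165.2 CPM, with Col1a2, Dcn and Cldn5 at 0, and astrocyte markers to between 6.14 and 17.0 CPM, with Aqp4 and Slc1a3 at 0. Astrocyte markers moved with the groups: their sum was 6.14 to 6.16 CPM untreated, 15.8 to 17.0 with LPS, 13.9 to 16.5 and 13.9 to 14.9 with 10 and 30 µM 6-gingerol, 12.3 to 16.0 with 10 µM 6-shogaol and 8.73 to 10.2 with 30 µM, and 1 of the 8 had enough counts to be tested. Fibroblast and endothelial markers were higher in both 10 µM 6-shogaol libraries (159.7 and 165.2 CPM) than in both LPS libraries (128.4 and 131.4), and those of lymphocytes, neutrophils and plasmacytoid dendritic cells were lower (1.45 and 2.17 against 2.95 and 3.03). The part of these markers in the results below was not tested. Library totals ran from 16534960 to 21179867 estimated reads.

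Promoter letters were read to see which of these genes hold the element named above near their start. RefSeq promoter windows (build GRCm38.p6, 250 bases before to 50 after a gene's start) were on hand for 7 of the 10 genes. The letters GAAA, then any 2 bases, then GAAA again, the core of the interferon-stimulated response element, were searched on both strands; overlapping matches were each counted. They occurred in 3.44% of 32851 windows and in at least 1 window of 3.99% of genes, and in 4 of these 7 genes. The 110 bases lying 160 to 51 bases before the start are printed for those 4 and for 1 of the 2 windows of Ifit2. Neither Ifit2 window had a match. Ifit2 responded to the second dose of 6-shogaol in the opposite direction to most of the others, and a link between the 2 was not tested. Capitals mark the matches, and a match on the opposite strand reads TTTC, any 2 bases, TTTC.
Isg15 (chr4:156200869-156200978, minus strand): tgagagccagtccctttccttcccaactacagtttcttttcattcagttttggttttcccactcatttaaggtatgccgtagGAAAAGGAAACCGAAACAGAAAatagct
Ifit1 (chr19:34640729-34640838, plus strand): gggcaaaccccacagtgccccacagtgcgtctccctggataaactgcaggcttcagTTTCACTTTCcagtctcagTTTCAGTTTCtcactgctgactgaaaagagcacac
Ifit3 (chr19:34583369-34583478, plus strand): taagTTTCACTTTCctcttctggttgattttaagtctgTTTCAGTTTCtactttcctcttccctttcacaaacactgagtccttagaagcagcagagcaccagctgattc
Rsad2 (chr12:26456503-26456612, minus strand): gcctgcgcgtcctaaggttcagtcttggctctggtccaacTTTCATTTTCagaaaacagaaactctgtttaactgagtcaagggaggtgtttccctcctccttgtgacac
Ifit2 (chr19:34550534-34550643, plus strand): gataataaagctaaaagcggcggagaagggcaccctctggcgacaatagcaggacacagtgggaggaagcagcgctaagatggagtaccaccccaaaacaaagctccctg

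Isg15 held 3 overlapping matches in tandem, Ifit1 and Ifit3 held 2 separate ones each, and Rsad2 held 1. The windows of Oasl1 and Oasl2, which did not rise with the second dose of 6-shogaol, also held none. A match or its absence describes only these letters in this stretch. The 3 IFIT genes are neighbours on chromosome 19, with Ifit2 at 34550694 to 34576419, Ifit3 at 34583531 to 34588731 and Ifit1 at 34640871 to 34650009 (GRCm38, GENCODE M21, all on the plus strand). Oasl2 (114896936 to 114912234) and Oasl1 (114923240 to 114937915) are neighbours on chromosome 5, also on the plus strand. The remaining genes lie on 5 other chromosomes: Rsad2 on chromosome 12 (26442746 to 26456452, minus), Isg15 on chromosome 4 (156199424 to 156200818, minus), Zbp1 on chromosome 2 (173206612 to 173218923, minus), Rtp4 on chromosome 16 (a transcript at 23609919 to 23614222, plus) and Usp18 on chromosome 6 (121245906 to 121270917, plus).

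LPS raised all 10 transcripts. A gene was called changed at a Benjamini-Hochberg adjusted p under 0.05 in edgeR's quasi-likelihood test, adjusted over all 12705 genes tested, and LPS raised 7.66% of those genes. Among the 9 other than Rtp4, log2 fold changes ran from 1.05 for Ifit2 to 6.10 for Zbp1, and the median over all 10 was 4.38 against -0.03 for all genes tested. The estimate for Rtp4 was higher still and rested on 2 reads in the untreated libraries together, against 250 with LPS, a ratio of 136.5 with a 95% counting interval from 37.4 to 1133. The smallest rises after that of Ifit2 were those of Usp18 (1.45) and Oasl1 (3.90).

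Per transcript length, the mean levels with LPS alone were, in TPM (each transcript's share after division by its length), 188.4 for Isg15, 103.2 for Rsad2, 69.3 for Oasl1 and 15.3 for Oasl2. Usp18, Ifit2, Zbp1, Ifit1, Ifit3 and Rtp4 followed, between 11.7 and 4.81 TPM. With 30 µM 6-shogaol, Rsad2 (38.1 TPM) and Isg15 (36.6 TPM) stood side by side, Oasl1 was at 27.7 TPM, and Ifit2 (11.7 TPM) came next. Zbp1, Ifit3 and Rtp4 were then at 1.28, 0.92 and 0.76 TPM.

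**Figure D1:**
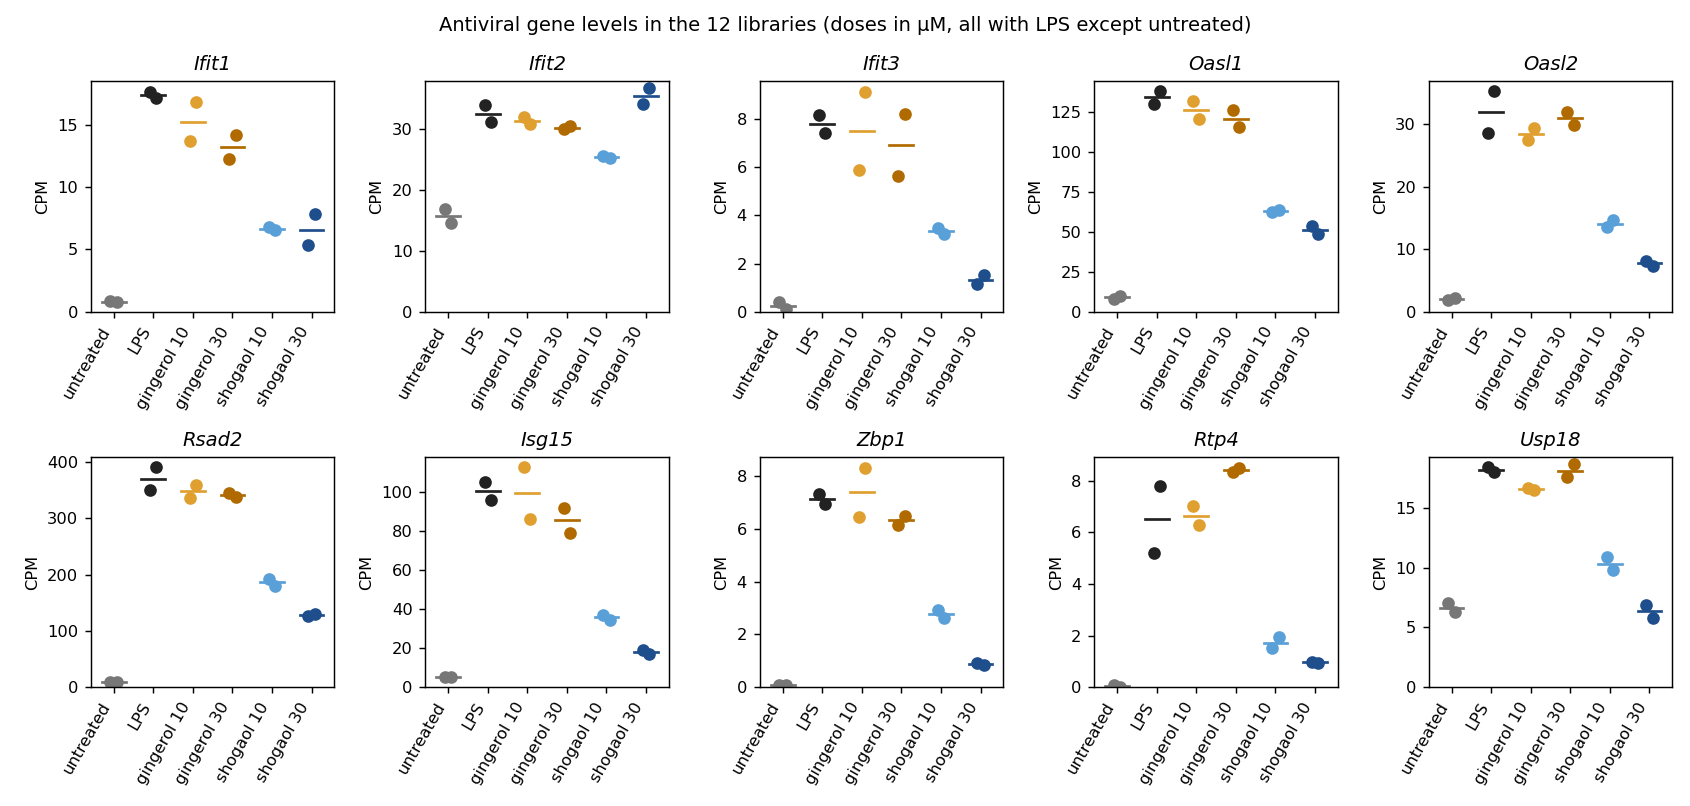
Each panel plots 1 gene in TMM-scaled CPM (linear axis from 0) for the 6 groups, with 1 point per library and a line at the mean of 2 libraries. With 10 µM shogaol both points lay under both LPS points for all 10 genes, and with 30 µM only Ifit2 was back at the LPS level.

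With the first dose of 6-shogaol, 8 of the 10 transcripts were lower than with LPS alone, where 0.575% of all genes tested were called lower. The exceptions by the test were Ifit2 and Ifit3. For all 10, both libraries with 10 µM lay below both LPS libraries, an order shown by 27.2% of all genes tested. The median log2 change over the 10 was -1.20, against 0.00 for all genes. From 10 to 30 µM, 6 fell and Ifit2 rose, where 9.54% of all genes were called lower and 9.85% higher. For Ifit1, Oasl1 and Rtp4 the second step did not pass the test. Both 30 µM libraries lay below both 10 µM libraries for 8 of 10, all but Ifit1 and Ifit2, beside 31.1% of all genes. The 10 µM libraries enter both steps, so the values of the 2 steps are not independent. In bulk RNA, fewer responding cells and less RNA per cell cannot be told apart.

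Isg15, the ubiquitin-like modifier, was at 5.18 and 5.12 CPM in untreated cells, 105.3 and 96.1 after LPS, 37.0 and 34.6 when 10 µM 6-shogaol came first, and 18.9 and 17.2 at 30 µM. No 2 of these groups overlapped, and the level went down at each dose. The log2 change was -1.49 (95% interval -1.77 to -1.22, edgeR adjusted p = 2.37e-05) for the first step and -0.98 (-1.28 to -0.69, adjusted p = 0.000173) for the second. Usp18, the protease that removes ISG15 from proteins and also restrains the interferon receptor, was at 7.03 and 6.28 CPM untreated, 18.4 and 18.0 with LPS, 10.9 and 9.77 with 10 µM, and 6.90 and 5.80 with 30 µM. Its 30 µM libraries overlapped the untreated ones, with the lower of them below both. The steps were -0.82 (adjusted p = 0.00518 in edgeR) and -0.70 (adjusted p = 0.00354). The first was not called in 6 of 24 alternatives, among them those without LPS replicate 1 or 2 or 10 µM replicate 1 or 2. The second was not called in 1, without 30 µM replicate 2. Over 24 alternatives the adjusted p ran from 2.84e-05 to 0.185 and from 0.000912 to 0.0533. Against untreated cells, Usp18 with 30 µM differed by -0.07 (-0.38 to 0.25).

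Genes for attaching ISG15 moved little at the first dose. Of the E1 enzyme Uba7, the E2 Ube2l6 and the ligases Herc6 and Trim25, none was called with 10 µM in edgeR (2 of 4 had an unadjusted p under 0.05, beside 1378 of all 12705 genes), with log2 changes from -0.39 for Herc6 to -0.19 for Ube2l6. Uba7 rose in the second step, from 7.60 to 11.6 CPM (log2 change 0.60, edgeR adjusted p = 0.0112).

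Rsad2, which encodes viperin, had the highest CPM of the 10 with LPS. It was at 9.80 and 10.0 CPM untreated, 350.1 and 390.5 with LPS, 192.3 and 180.7 with 10 µM, and 127.3 and 130.2 with 30 µM. The 4 groups were ordered without overlap, and the libraries with 30 µM remained far above the untreated ones. It fell by 0.99 on the log2 scale (interval -1.19 to -0.79, edgeR adjusted p = 5.68e-05) and then by 0.53 (-0.74 to -0.33, adjusted p = 0.00123).

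Oasl1 and Oasl2 encode OAS-like proteins with ubiquitin-like domains, and Oasl1 is known as a brake on IRF7 translation in mice. Oasl1 was at 8.16 and 9.82 CPM untreated, 130.2 and 137.9 with LPS, 62.4 and 63.9 with 10 µM, and 53.8 and 48.5 with 30 µM. Most of its decrease was present at 10 µM: the first step was -1.09 (interval -1.31 to -0.87, edgeR adjusted p = 5.68e-05) and the second -0.30 (-0.53 to -0.08, adjusted p = 0.0555). That second step passed in 5 of 24 alternatives (adjusted p from 0.0216 to 0.297, edgeR among the tools), those without both or either untreated library among them: 0.0274 without replicate 1 and 0.0242 without replicate 2. Oasl2 was at 1.80 and 2.19 CPM untreated, 28.6 and 35.3 with LPS, 13.6 and 14.7 with 10 µM, and 8.18 and 7.27 with 30 µM. Its 4 groups did not overlap, and both steps were called (-1.18, adjusted p = 0.000225, and -0.87, adjusted p = 0.000817, edgeR).

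Among the relatives, 8 of 10 listed genes were tested and 7 rose with LPS, beside 7.66% of all genes. The 2'-5' oligoadenylate synthetases Oas1a (105.1 to 64.7 CPM, log2 change -0.70) and Oas3 (44.6 to 25.8 CPM, -0.79) were called lower with 10 µM. In the second step Oas1g (-0.43) and Oas2 (-0.83) were lower. Oas1a and Oas1g are close copies whose estimated counts were not all whole, so the split of reads between them is uncertain.

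The 3 IFIT genes took 3 courses. Ifit1 was at 0.821 and 0.744 CPM untreated, 17.7 and 17.2 with LPS, 6.80 and 6.53 with 10 µM, and 5.31 and 7.83 with 30 µM. Its 10 µM libraries lay inside the range of its 30 µM libraries. The first step was -1.39 (interval -1.76 to -1.02, edgeR adjusted p = 0.00077) and the second -0.01 (-0.42 to 0.39). The second estimate was 0.01 without 10 µM replicate 1 and 0.23 without 30 µM replicate 1. Its near copies Ifit1bl1 and Ifit1bl2 had at most 11 reads in a library.

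Ifit3 went down at both doses. It was at 0.411 and 0.093 CPM untreated, 8.17 and 7.41 with LPS, 3.48 and 3.21 with 10 µM, and 1.15 and 1.51 with 30 µM, with no overlap between these groups. The first step was -1.23 (interval -1.80 to -0.65, edgeR adjusted p = 0.0588) and the second -1.30 (-2.03 to -0.57, adjusted p = 0.0153). The first was called in 11 of 24 alternatives (adjusted p from 1.3e-06 to 0.548), among them edgeR without either untreated library (0.00761 and 0.0112), either 10 µM 6-gingerol library (0.0382 and 0.0401) or either 30 µM 6-gingerol library (0.0413 and 0.0406). The second was lost in 6 of 24 alternatives, among them those without 10 µM replicate 1 or 2 or 30 µM replicate 1 or 2. Its adjusted p ranged over the alternatives from 3.52e-05 to 0.106. Reads are shared with the near copy Ifit3b, at 1.48 CPM with LPS. With both summed, the first step was -1.30 (adjusted p = 0.0101, edgeR).

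Ifit2 ran differently. It was at 16.8 and 14.6 CPM untreated, 34.0 and 31.1 with LPS, 25.6 and 25.2 with 10 µM, and 34.3 and 36.9 with 30 µM. The 10 µM libraries lay between untreated and LPS, and the 30 µM libraries were both above both LPS libraries. The first step was -0.36 (interval -0.59 to -0.13, edgeR adjusted p = 0.22), and it was called in 1 alternative, with only the groups compared (0.0331, in a range from 0.0331 to 0.798). The second was an increase of 0.49 (0.26 to 0.72, adjusted p = 0.00551), which was not called without 10 µM replicate 2 (0.0659) or 30 µM replicate 2 (0.0602), in a range from 0.00139 to 0.0659. From LPS alone to 30 µM the change was 0.13 (-0.10 to 0.35).

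Zbp1, a sensor of Z-form nucleic acids that can start necroptosis, had the steepest second step of the 10. It was at 0.103 and 0.093 CPM untreated, 7.33 and 6.95 with LPS, 2.93 and 2.61 with 10 µM, and 0.916 and 0.845 with 30 µM. No groups overlapped, and the steps were -1.37 (interval -1.77 to -0.96, edgeR adjusted p = 0.00186) and -1.64 (-2.20 to -1.09, adjusted p = 0.000497). The first was not called without 10 µM replicate 2 (0.088, in a range from 1.64e-07 to 0.088). Of its 5 listed partners in cell death, Mlkl, the pore-forming protein (26.9 to 41.4 CPM, 0.62), and Casp8 (64.6 to 86.4 CPM, 0.42) rose in the second step. The adaptor Fadd fell (-0.43). Their edgeR adjusted p were 0.00124, 0.0264 and 0.0392, in a step where 9.85% of all genes were called higher and 9.54% lower. The kinases Ripk1 and Ripk3 had second-step values of 0.21 and 0.31 that did not pass the test.

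Rtp4, a receptor transport protein that also restricts flaviviruses, was at 0.103 and 0 CPM untreated, 5.21 and 7.81 with LPS, 1.53 and 1.94 with 10 µM, and 0.977 and 0.958 with 30 µM. The 2 LPS libraries differed more than those of the shogaol groups, and no groups overlapped. The first step was -1.91 (interval -2.46 to -1.36, edgeR adjusted p = 0.00141) and the second -0.85 (-1.58 to -0.11, adjusted p = 0.10). On the authors' normalized table the first was not called with either pseudocount (limma adjusted p = 0.073 and 0.627, in a range over the alternatives from 3.24e-13 to 0.627). Summed reads were 66 with 10 µM and 33 with 30 µM.

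**Figure D2:**
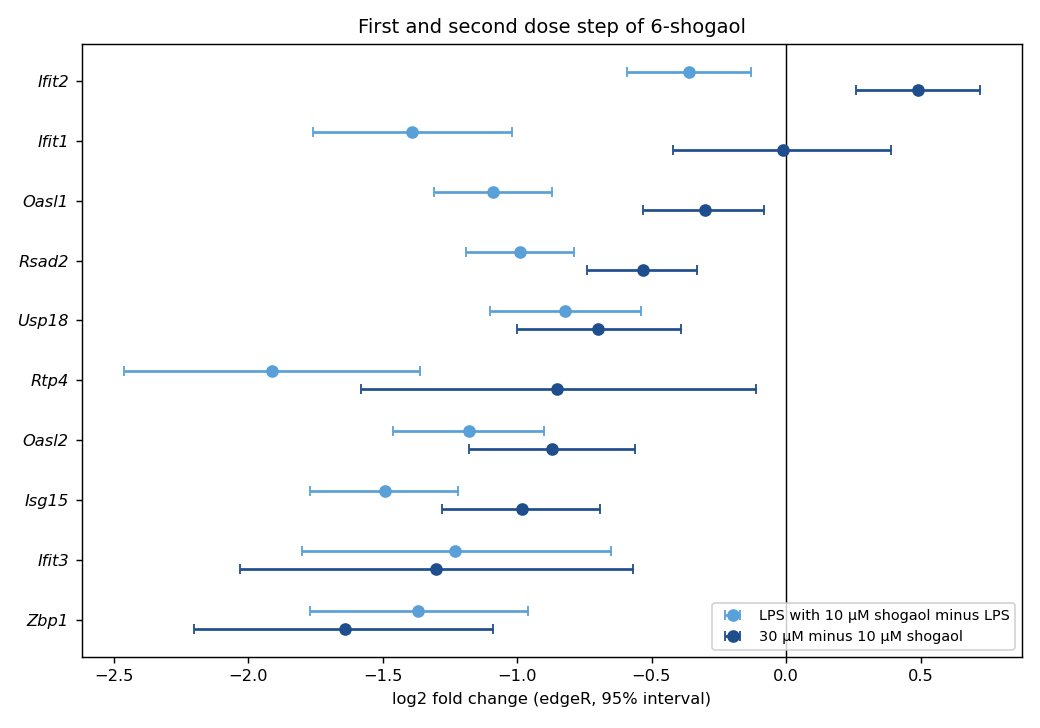
Points are edgeR log2 fold changes with 95% intervals for the first step (10 µM shogaol minus LPS, light) and the second (30 minus 10 µM, dark), with genes ordered from the highest to the lowest second step. The first step lies between -1.91 and -0.36 for all 10, and the second runs from 0.49 for Ifit2 through -0.01 for Ifit1 to -1.64 for Zbp1.

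Whether the second step was smaller than the first was tested as the difference of the 2 log2 changes. It was called for 3 genes, all in the direction of a smaller second decrease or an increase, where 1.2% of all genes were called higher: Ifit1 (1.37, interval 0.69 to 2.05, edgeR adjusted p = 0.0368), Ifit2 (0.84, 0.44 to 1.25, adjusted p = 0.0314) and Oasl1 (0.78, 0.39 to 1.17, adjusted p = 0.0382). The median over the 10 was 0.48 against 0.00 for all genes. Differences for Oasl2 (0.31), Rsad2 (0.46), Isg15 (0.51), Rtp4 (1.06), Usp18 (0.12), Ifit3 (-0.07) and Zbp1 (-0.28) did not pass the test. These 3 calls hang on few libraries: none was left without LPS replicate 1, LPS replicate 2, 10 µM replicate 1, 10 µM replicate 2 or 30 µM replicate 2, and 2 were left without 30 µM replicate 1. The 24 alternatives gave adjusted p from 0.000717 to 0.401 for Ifit1, 0.00381 to 0.368 for Ifit2 and 0.00178 to 0.357 for Oasl1. Mean fragment length, a property of the library preparation, was 247 and 248 bases with 10 µM against 237 and 223 with LPS and 236 and 244 with 30 µM. With it as a covariate, 8 genes stayed lower in the first step and 7 changed in the second, while the difference of steps was called for Oasl1 (0.89, edgeR adjusted p = 0.0363) and not for Ifit1 (0.104) or Ifit2 (0.0728).

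From LPS alone to 30 µM, 9 of the 10 were lower, where 12.8% of all genes were called lower, and those 9 were also the ones with no overlap between groups (32.5% of all genes lay below LPS in that way). The changes ran from -3.01 for Zbp1, 8.06-fold lower, to -1.39 for Oasl1, 2.62-fold lower. Against untreated cells, all 10 were higher with 10 µM (5.88% of all genes) and 9 with 30 µM (13.3% of all genes), with Usp18 the exception. Rsad2 with 30 µM was still 3.70 higher than untreated on the log2 scale, and Ifit1 3.07 and Oasl1 2.50. Rtp4 with 30 µM was at 19.8 times its untreated level, with a counting interval from 5.07 to 170.4. Usp18 with 10 µM was not called higher than untreated without 10 µM replicate 1 (edgeR adjusted p = 0.0881).

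The share of the LPS-induced rise that remained, on the linear CPM scale, was between 26.0% (Rtp4) and 57.5% (Ifit2) with 10 µM 6-shogaol, with a median of 39.2%. With 30 µM the median was 16.7%. Ifit1 (34.8%), Oasl1 (33.7%) and Rsad2 (33.0%) kept about equal shares, Oasl2 kept 19.2%, and Ifit3, Rtp4, Isg15 and Zbp1 lay between 14.3% and 11.1%. Usp18 was at -2.64%, just under its untreated level, and Ifit2 at 117.8%. On the log2 scale, which weighs the low levels more, the same medians were 69.2% and 50.04%.

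**Figure D3:**
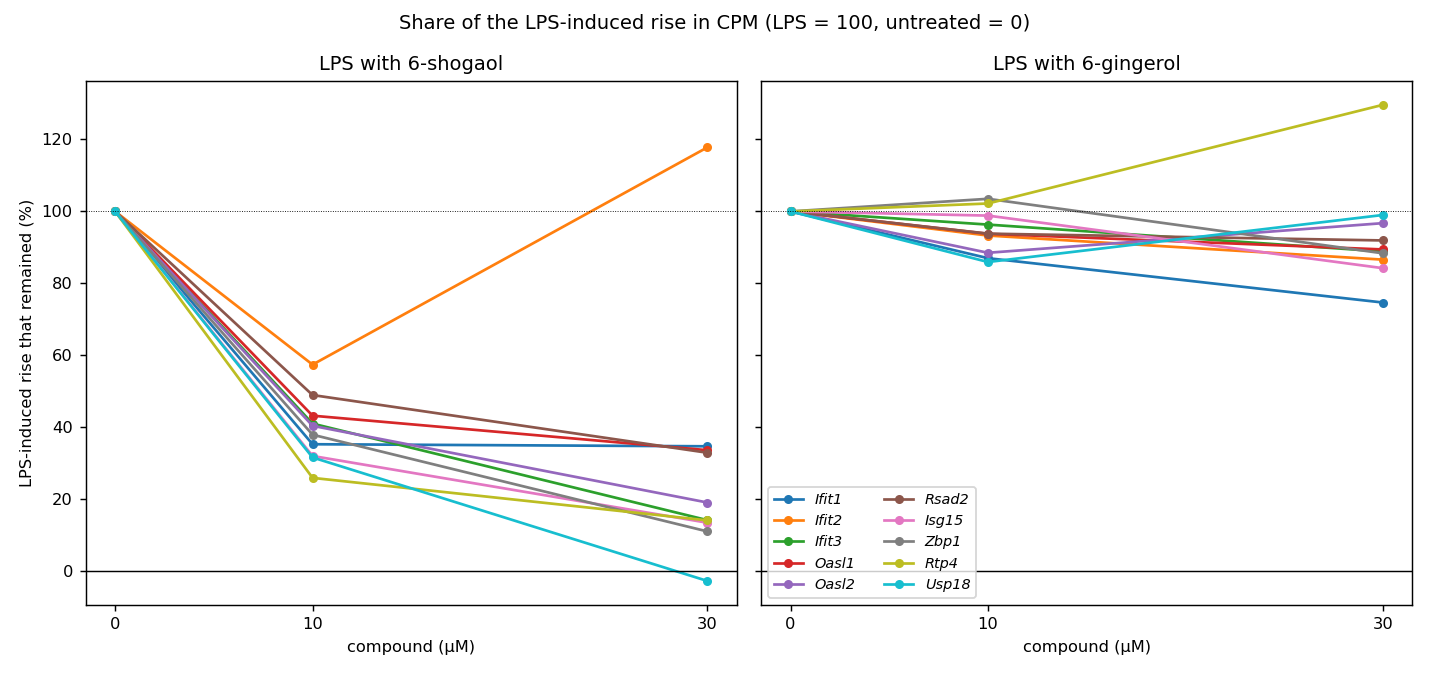
Lines show, for each gene, the share in percent of the LPS-induced rise in mean CPM (LPS alone is 100, untreated is 0) against the dose in µM of 6-shogaol (left) and 6-gingerol (right). Shogaol medians were 39.2% and 16.7%, and the gingerol lines stay between 74.7% and 129.6%.

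With 6-gingerol, none of the 10 was called against LPS alone at either dose in edgeR, DESeq2 or limma, and neither was any other gene in edgeR, so 0% of all genes were called. At an unadjusted p under 0.05 there were 0 of 10 with 10 µM, beside 243 of all 12705 genes, and 1 of 10 with 30 µM, beside 189. That 1 was Ifit1, at 12.3 and 14.2 CPM against 17.7 and 17.2 (log2 change -0.40, interval -0.74 to -0.05). Rsad2 was at 336.4 and 359.7 CPM with 10 µM and 345.0 and 337.4 with 30 µM, next to 350.1 and 390.5 with LPS alone. Isg15 was at 112.8 and 86.3 CPM, then 92.1 and 79.2, and its interval with 30 µM ran from -0.50 to 0.03. Rtp4 was at 7.00 and 6.30 CPM, then 8.33 and 8.50, both above the LPS libraries, with an interval from -0.10 to 0.82. The remaining estimates lay between -0.19 and 0.05, with interval bounds between -0.70 and 0.49. DESeq2 called 2 other genes with 30 µM.

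The 2 compounds were compared at both doses, 2 pairs with 10 genes each, with p-values adjusted over all genes tested. At 10 µM, 8 of 10 were lower with 6-shogaol than with 6-gingerol, where 0.559% of all genes were. The difference for Ifit2 was -0.31 (edgeR adjusted p = 0.224) and for Ifit3 -1.18 (0.0677). Left-out libraries mattered here as well: 5 were called without either 10 µM 6-shogaol library, and Usp18 was lost without either 6-gingerol library (0.165 and 0.0872). At 30 µM, 9 of 10 were lower with 6-shogaol, where 12.4% of all genes were, with the smallest difference for Ifit1 (6.57 against 13.2 CPM) and the largest for Rtp4 (log2 -3.11). Ifit2 differed by 0.23 (interval 0.00 to 0.46, adjusted p = 0.128). The change from 10 to 30 µM itself also differed between the compounds: for 5 genes it was lower with 6-shogaol (3.9% of all genes) and for Ifit2 it was higher (4.27% of all genes).

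The other genes of the pathway came from lists chosen with earlier results of these data known, and 12705 genes were again the basis of adjustment. Of 33 other antiviral genes tested, 20 rose with LPS, beside 7.66% of all genes. With 10 µM 6-shogaol, 6 were lower (median -0.49), beside 0.575% of all genes, and none higher. In the second step 9 were lower, where 9.54% of all genes were, and 3 higher, a share near the 9.85% of all genes (median -0.05). Lowest were Mx2, a dynamin-like GTPase (0.651 to 0.089 CPM, log2 change -2.81), Ifi27l2a (-1.81) and Slfn5 (-1.34). Higher were the DNA sensor Mb21d1 (cGAS, 13.3 to 30.5 CPM, 1.20), Pml (0.65) and the RNA-dependent kinase Eif2ak2 (0.34). Of 8 GTPases of the GBP and IRG families tested, Gbp2 (7.15 to 2.08 CPM, -1.79) and Gbp3 (-1.33) fell in the second step, and both had fallen in the first. These were 2 of 8 in each step, beside 0.575% of all genes in the first and 9.54% in the second, and 0 were higher. The list's medians were -0.69 and -0.27, and its second-step estimates ran up to 1.09 for Gbp8, which did not pass the test. The 12 inflammatory cytokine and chemokine genes tested had 8 lower in the first step (median -1.09), beside 0.575% of all genes. They had 11 lower in the second (median -1.49, from Csf3 at -4.22 to Il1a at -0.55), beside 9.54% of all genes. For the 10 antiviral genes the corresponding medians were -1.20 and -0.77.

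Upstream, the 7 listed type I interferon genes gave almost no reads. Ifnb1 had 1 read in 1 of 12 libraries, and Ifna1, Ifna2, Ifna4, Ifna5, Ifne and Ifnk had 0, so none could be tested. The time from LPS to harvest is not given, so their levels at other times are unknown. Of 11 receptor and JAK-STAT genes, 8 rose with LPS, beside 7.66% of all genes. Of these 11, Jak2 alone was lower with 10 µM 6-shogaol (178.7 to 122.5 CPM, -0.55, edgeR adjusted p = 0.00518), beside 0.575% of all genes. In the second step Jak2 (-0.58), Irf9 (13.3 to 9.52 CPM, -0.48) and Ifnar1 (-0.28) were lower. Of 10 genes between TLR4 and IRF3, Irf7, the interferon-induced amplifier of the response, and Cd14, the LPS co-receptor, were lower at both steps. Irf7 was at 2.72 CPM untreated, 33.3 with LPS, 13.1 with 10 µM and 6.65 with 30 µM (steps -1.35 and -0.98). Cd14 went from 143.6 to 83.6 and 53.5 CPM, and the adaptor Ticam2 was lower in the second step (-0.59). Tlr4, Ticam1, Tbk1 and Irf3 had values between -0.21 and 0.10 at both steps that did not pass the test.

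**Figure D4:**
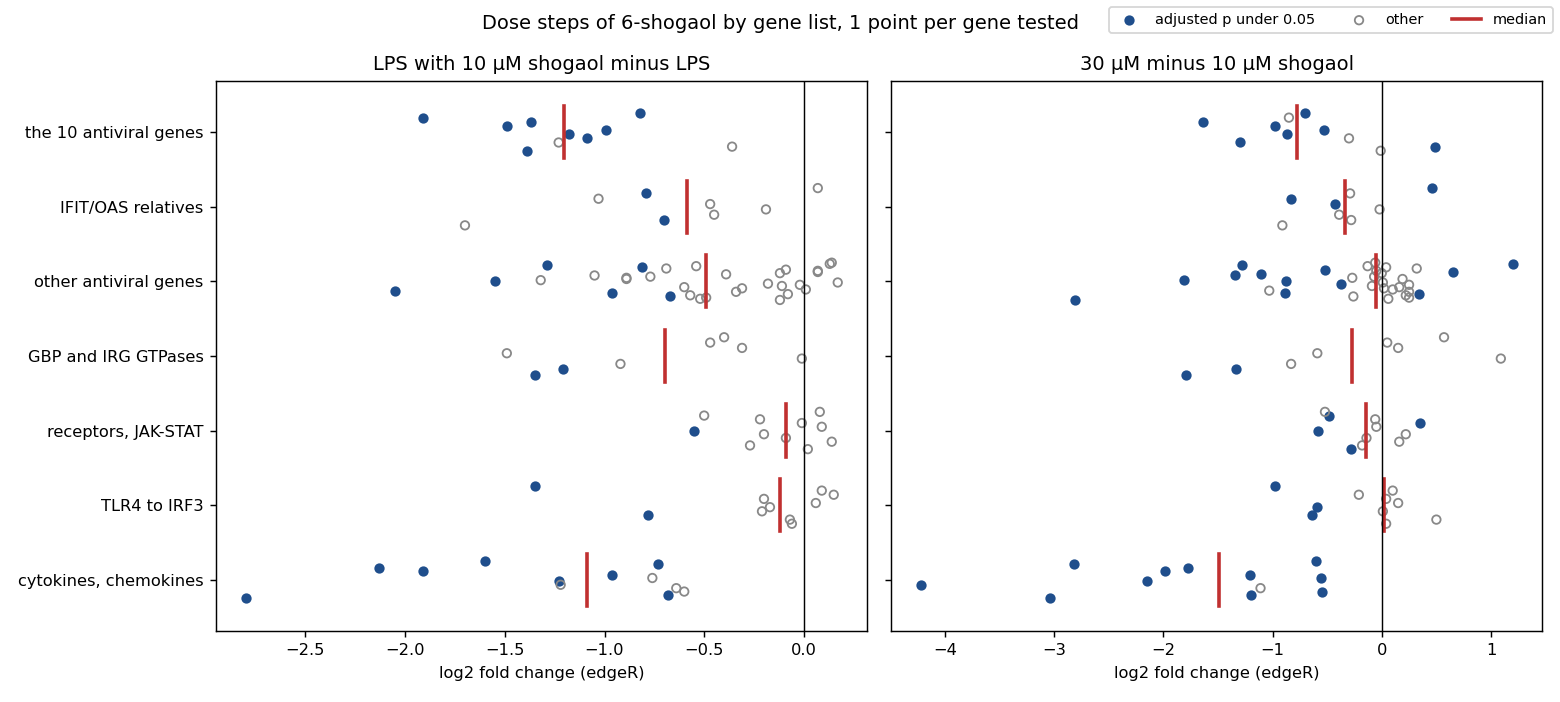
Each point is the edgeR log2 fold change of 1 tested gene in the first (left) or second (right) shogaol step, filled where the adjusted p is under 0.05, with a red line at the list's median. The 10 antiviral genes have medians of -1.20 and -0.77, the other antiviral genes -0.49 and -0.05, and the cytokines -1.09 and -1.49.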

How the data were processed

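RNA-seq of 12 BV2 libraries (TruSeq stranded mRNA, paired-end) was analysed from the authors' processed tables. Per the file headers these are RSEM gene tables with expected counts (estimated reads per gene, 7.03% of values not whole) and TPM, with gene and effective lengths in bases, from which the mean fragment length was taken. The authors also deposited a normalized signal for 18013 genes whose scaling is not given in the sources used here; it served as an alternative. The submitters' processing notes name Trimmomatic 0.39, STAR 2.7.11b, RSEM 1.3.3, DESeq2 1.44.0 and GRCm38. Symbols and positions came from GENCODE M21 (97.8% of identifiers matched).

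Here expected counts were rounded, filtered with filterByExpr (12705 genes), TMM-scaled and fitted with edgeR 4.0.16 (R 4.3.3): 6 group means, 6 residual degrees of freedom, robust quasi-likelihood F test, 2-sided, no covariate. The common biological coefficient of variation was 9.45%. CPM are TMM-scaled. Alternatives used other scaling, DESeq2 1.42.0, limma 3.58.1, no filter, a fragment-length covariate, a replicate block, summed gene copies, only the groups compared, and each library left out. The test was checked on simulated data. Replicates of each group differed by more than sampling noise. All 10 genes were named; other genes followed a rule of list, rank and direction. Some listed genes are not reported here by name. The genes and lists were chosen with earlier results of these data known. Counting intervals cover counting error only.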

Additional observations from a re-analysis of the deposited data

Results flagged for a closer look

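The change from 10 to 30 µM differed between 6-shogaol and 6-gingerol for 6 of the 10 antiviral genes by a test of the difference itself (edgeR, adjusted over all genes; 3.9% of all genes were called lower and 4.27% higher). The shogaol step was lower than the gingerol step by a log2 difference of -1.42 for Zbp1 (adjusted p = 0.0138), -0.99 for Oasl2 (0.00648), -0.82 for Usp18 (0.017), -0.77 for Isg15 (0.0217) and -0.51 for Rsad2 (0.0302). For Ifit2 it was higher, by 0.54 (0.0405).

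Ifit2 was at 25.4 CPM with 10 µM and 35.6 with 30 µM 6-shogaol, and at 31.4 and 30.3 with 6-gingerol. Its call was lost without any 1 of the 10 LPS or compound libraries, with adjusted p from 0.0573 to 0.161. Without LPS replicate 1 or LPS replicate 2 it was the only one lost. Without 10 µM 6-shogaol replicate 1 or 30 µM 6-shogaol replicate 2, Oasl2 was the only one left. Rsad2 was not called without 10 µM 6-gingerol replicate 1 (0.0972), either 30 µM 6-gingerol library (0.11 and 0.0623) or any 6-shogaol library (0.0824 to 0.119). Isg15 was not called without 10 µM 6-gingerol replicate 2 (0.0586), 30 µM 6-gingerol replicate 1 (0.101) or 10 µM 6-shogaol replicate 2 (0.0612). Usp18 was not called without 30 µM 6-gingerol replicate 2 (0.0507). Differences for Ifit3 (-1.18), Rtp4 (-1.19), Oasl1 (-0.24) and Ifit1 (0.19) did not pass the test. Those of Ifit3 and Rtp4 were each called in 5 of 24 alternatives, with log2 differences from -1.53 to -0.88 and from -1.34 to -1.0.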

How the results depend on the processing

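All 10 genes stayed higher with LPS, and none was called with 6-gingerol, under every alternative run. With a library left out, 10 to 10 genes were called for LPS, 6 to 9 for the first shogaol step, 4 to 8 for the second (4 without 30 µM replicate 2), 0 to 3 for the difference of steps, 5 to 9 and 9 to 9 for shogaol against gingerol at 10 and 30 µM, 1 to 8 for the difference between the compounds' dose steps, 9 to 9 for 30 µM shogaol against LPS, 9 to 10 and 9 to 9 for 10 and 30 µM shogaol against untreated, and 0 to 0 for gingerol. The 3 calls for the difference of steps became 0 with library totals (which shift its median over all genes by -0.144, that of the compound-by-dose difference by -0.147 and that of shogaol against gingerol at 10 µM by 0.105), 1 with fragment length and 0 with either pseudocount on the authors' table. That table gave 5 in place of 8 genes for shogaol against gingerol at 10 µM and 0 in place of 6 for the compounds' dose steps. The median share of the rise kept at 10 µM, 39.2%, was 41.4% with library totals, 36.8% on the authors' table and 69.2% as a ratio of log2 changes. At 30 µM, 16.7% became 16.0% and 50.04% for the latter pair. Same-numbered replicates did not deviate together (correlations from -0.312 to 0.178), and the replicate block left each comparison's count as it was: 8 in the first step, 7 in the second, 3 for their difference and 6 for the compounds' steps. Over all genes, the first step had 81 calls, 120 by DESeq2, 311 with no filter, 970 with only the groups compared and 18 without 10 µM replicate 2; with no filter gingerol had 28 and 27 at 10 and 30 µM, none of the 10 among them.

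Estimates that changed sign were not called; ranges are over left-out libraries. For the difference of steps these were Ifit3 (0.05 with copies summed; -0.29 to 0.11), Zbp1 (0.16 and 0.13 on the authors' table) and Usp18 (-0.02 with library totals; -0.04 to 0.27). With 10 µM 6-gingerol they were Ifit2 (-0.11 to 0.01), Ifit3 (0.16 with fragment length; -0.40 to 0.23), Isg15 (-0.22 to 0.17), Zbp1 (-0.14 to 0.22) and Rtp4 (-0.02 with library totals; -0.23 to 0.35). With 30 µM 6-gingerol they were Ifit3 (-0.46 to 0.09), Oasl2 (-0.19 to 0.11) and Usp18 (0.03 with library totals, 0.01 with fragment length, 0.05 and 0.05 on the authors' table; -0.05 to 0.04). Others were Ifit1 in the second step (-0.33 to 0.23) and between the compounds' steps (-0.12 to 0.44), and Usp18 with 30 µM against untreated (-0.19 to 0.07). The cause was not tested. At 2 libraries a group, Rtp4, Zbp1 and Ifit3, with few reads, had the widest intervals.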

Other observations

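The 5 other genes whose log2 CPM followed the 10 antiviral genes most closely over the 12 libraries, by mean Pearson r and among genes with a mean of at least 1 CPM, were Acsl1, a fatty acid activating enzyme (0.949), the chemokine Ccl5 (0.946), the lectin receptor Cd302 (0.946), the chemokine-like receptor Ccrl2 (0.944) and Focad (0.943). These correlations describe 12 libraries that share the treatment groups. Ccl5 went from 267.5 CPM with LPS to 71.3 with 10 µM and 18.0 with 30 µM 6-shogaol, with steps of -1.91 and -1.98 on the log2 scale, both called in edgeR. Ccrl2 went from 69.9 to 36.8 and 22.1 CPM, with both steps called (-0.93 and -0.74). Acsl1, at 145.6, 109.7 and 93.8 CPM, was called in the first step (-0.41) and not in the second (-0.23). Cd302 and Focad had values between -0.45 and -0.24 that did not pass the test at either step.

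The promoter letters of the interferon-stimulated response element core were also counted in the other lists. They occurred in 7 of 7 IFIT and OAS relatives with a window, 9 of 10 GBP and IRG GTPases, 13 of 27 other antiviral genes, 4 of 7 interferon ligands, 2 of 10 receptor and JAK-STAT genes, 1 of 5 genes of the ZBP1 axis, 1 of 11 cytokine and chemokine genes, 0 of 4 ISG15 conjugation genes and 0 of 6 genes between TLR4 and IRF3, beside 3.99% of all genes.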
